A study of Homo sapiens with 4 samples.

Results

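The ZNF genes are human genes named for a zinc finger, and those expressed at a mean of at least 5 FPKM in the oesophageal squamous carcinoma line TE5 were compared between cells that overexpressed the transcription factor ETS1 and control cells. FPKM is the number of fragments of a gene scaled to its length and to the library's total. Genes were chosen by their mean FPKM: a gene was taken if its name was ZNF followed by a number and at most 1 letter and if its mean FPKM over the 4 libraries reached 5. This gave 120 of the 554 such names in the table, which holds 55764 gene names in all. The remaining names split into 226 genes of 1 to 5 FPKM and 208 under 1 FPKM, of which 42 were listed at 0 in every library. The choice used expression levels, so those are given as a description. It did not use the difference between the groups, except that 8 genes had a control mean under 5 and 5 an ETS1 mean under 5 and were kept through their higher group.

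Both groups were the same line, grown under the same conditions. The 2 ETS1 libraries came from cells infected with a lentiviral vector that carries ETS1 under a CMV promoter. The 2 control libraries came from cells with the empty backbone, and their genotype is listed as WT. Expression was stable after selection, and the sources used here do not say whether the replicates of a group are separate infections, cultures or extractions, so p-values measure the spread between these libraries, which may be technical. ETS1 itself was 0.491 and 0.509 FPKM in the control libraries and 1.84 and 1.87 FPKM in the ETS1 libraries, from 142 and 161 against 756 and 756 reads. Its change in log2(FPKM + 1), the scale of all changes below, was 0.93 (limma adjusted p = 7.04e-04). At this low level the added 1 makes the change smaller than that of the group means, 0.500 and 1.85 FPKM. Reads recovered from the tables were 40356723 and 44119604 in the controls and 57269984 and 56502875 in the ETS1 libraries, a ratio of group means of 1.35, and the part of this difference in depth in the results was not tested. Of the markers of squamous epithelium (KRT5, KRT14, TP63, KRT13, KRT4) 0 of 5 reached 1 FPKM, with a summed level of 0.0775 to 0.0935 FPKM, although the line is labelled squamous cell carcinoma. KRT8, KRT18 and EPCAM were the 3 of 5 simple epithelial markers above 1 FPKM. Of markers of other cells, COL1A1 was the 1 of 5 fibroblast genes with a mean of at least 1 FPKM, and the list had a summed level of 2.11 to 2.23 FPKM in the control and 3.02 to 3.08 FPKM in the ETS1 libraries. Neither endothelial nor squamous markers reached that level, and the part of other cells in the results was not tested.

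Most ZNF genes encode proteins with C2H2 zinc fingers, short loops in which a pair of cysteines and a pair of histidines hold a zinc ion and a helix reads DNA bases. Long arrays of fingers give long recognition sites, and many lie in clusters of duplicated genes, the largest of them on chromosome 19. A KRAB domain at the N-terminus binds TRIM28 (also called KAP1), which brings the histone methyltransferase SETDB1 and heterochromatin proteins and is best known for silencing transposable elements. A SCAN domain lets finger proteins pair with each other. ETS1 belongs to the ETS family, which binds sites with a GGAA core and has many copies of the CCGGAAG form near the start sites of housekeeping genes.

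The upstream sequences of 6 of the most changed genes are shown because ETS1 is a DNA-binding factor. They are the largest riser and the largest faller on the log2(FPKM + 1) scale, and the 4 of the named movers with an upstream window that holds CCGGAAG. Each is the 250 bases before an annotated start, 5′ to 3′ on the gene's strand, from RefSeq on GRCh38.p14, in lower case with CCGGAAG or its reverse complement CTTCCGG in capitals. They lie at chrX:85243741-85243990 (ZNF711, plus strand), chr10:96130372-96130621 (ZNF518A, plus strand), chr18:35344421-35344670 (ZNF24, minus strand), chr16:30407356-30407605 (ZNF771, plus strand), chr16:89720752-89721001 (ZNF276, plus strand) and chr19:55640752-55641001 (ZNF580, plus strand). Apart from that of ZNF711, these windows lie inside the gene's span in GENCODE 29, the annotation used for gene positions below. They therefore precede a RefSeq start and not the outermost GENCODE start.
ZNF711: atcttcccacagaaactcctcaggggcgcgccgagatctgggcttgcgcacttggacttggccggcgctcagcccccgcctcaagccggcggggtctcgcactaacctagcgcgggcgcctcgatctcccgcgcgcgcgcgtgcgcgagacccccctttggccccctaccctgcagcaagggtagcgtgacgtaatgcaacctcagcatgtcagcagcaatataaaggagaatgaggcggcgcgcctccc
ZNF518A: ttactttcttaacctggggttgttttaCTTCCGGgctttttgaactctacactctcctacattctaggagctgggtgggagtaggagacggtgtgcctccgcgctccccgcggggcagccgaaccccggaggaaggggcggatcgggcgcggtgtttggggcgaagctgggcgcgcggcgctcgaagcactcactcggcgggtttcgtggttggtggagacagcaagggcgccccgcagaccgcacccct
ZNF24: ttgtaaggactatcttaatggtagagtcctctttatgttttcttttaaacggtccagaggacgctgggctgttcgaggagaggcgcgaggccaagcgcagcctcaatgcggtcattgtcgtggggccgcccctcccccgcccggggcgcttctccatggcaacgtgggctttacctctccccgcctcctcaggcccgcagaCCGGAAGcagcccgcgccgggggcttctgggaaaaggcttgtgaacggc
ZNF771: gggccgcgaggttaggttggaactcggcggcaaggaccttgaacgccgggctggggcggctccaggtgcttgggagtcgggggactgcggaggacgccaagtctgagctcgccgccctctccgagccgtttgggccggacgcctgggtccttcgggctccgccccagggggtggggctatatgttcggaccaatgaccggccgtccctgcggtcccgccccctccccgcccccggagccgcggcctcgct
ZNF276: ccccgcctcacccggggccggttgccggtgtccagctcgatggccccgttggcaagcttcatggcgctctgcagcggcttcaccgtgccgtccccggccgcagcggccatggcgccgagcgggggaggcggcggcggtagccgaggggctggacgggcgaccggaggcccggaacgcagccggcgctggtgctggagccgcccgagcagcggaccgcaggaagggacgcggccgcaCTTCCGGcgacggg
ZNF580: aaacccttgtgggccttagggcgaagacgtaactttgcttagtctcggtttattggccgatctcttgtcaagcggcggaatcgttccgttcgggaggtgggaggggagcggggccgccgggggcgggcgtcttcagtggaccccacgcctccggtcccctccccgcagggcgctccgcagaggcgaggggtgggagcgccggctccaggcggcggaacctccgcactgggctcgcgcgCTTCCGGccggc
Of the 97 genes of the set with a promoter entry, 31 (32%) held CCGGAAG on either strand in at least 1 such window. The share was 19.5% of 9325 tested genes with an entry, 8.5% of all 35116 entries, and 32.3% of 198 ZNF genes of 1 to 5 FPKM. By response it was 7 of 28 (25%) of the ZNF genes that rose, 5 of 27 (18.5%) of those that fell and 19 of 42 (45.2%) of those past no threshold. Over all tested genes it was 18.0% of the genes that rose and 22.7% of those that fell. The longer form CCGGAAGT, which contains the first, was in the window of 14 of the 97 genes (14.4%), against 8.6% of tested genes, 3.4% of all entries and 16.2% of the 198 ZNF genes of 1 to 5 FPKM. A match is a string of letters and not a shown binding site, and binding was not measured in these libraries.

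The expressed ZNF genes changed in both directions in near-equal numbers, and the changes were modest. Past an adjusted p of 0.05 (limma on log2(FPKM + 1), two-sided, Benjamini-Hochberg over 14306 genes of at least 1 FPKM) 34 of the 120 were higher and 33 lower in the ETS1 libraries, together 55.8%. Over all genes tested 59.1% passed, 30.7% higher and 28.4% lower, so the share of the ZNF genes was near the background. Of those that rose, ZNF518A, ZNF514, ZNF354B, ZNF449, ZNF574, ZNF260 and ZNF280B had a control mean under 5 FPKM. Of those that fell, ZNF771, ZNF276 and ZNF33B had an ETS1 mean under 5 FPKM. These genes were in the set only through their higher group, and both counts include them. The median log2 change was -0.01 for the ZNF genes and 0.02 for all genes. Of the 120, 58 lay above 0 and 62 below. The 2 groups of libraries did not overlap for 96 of the 120 genes, against 82.0% of all genes. The smallest two-sided p of an exact permutation test of 2 against 2 libraries is 0.333, and the p-values of single genes therefore depend on the variance that limma shares between genes.

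No expressed ZNF gene changed 2-fold, on the log2(FPKM + 1) scale used in the fit, and of the 14306 tested genes 151 did, a small share as well. The changes ran from -0.59 (ZNF771) to 0.75 (ZNF711), and 57 of the 67 that passed were under 0.5 in size. The summed level of the 120 genes was 1781 and 1810 FPKM in the controls and 1764 and 1776 FPKM in the ETS1 libraries. In the authors' deposited table, 32 of the 120 were higher and 34 lower at an adjusted p under 0.05, against 51.2% of 15683 genes called in either direction. Of the 67 calls made here, 61 were shared with the authors' deposited table in the same direction and 0 were opposite.

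**Figure D1:**
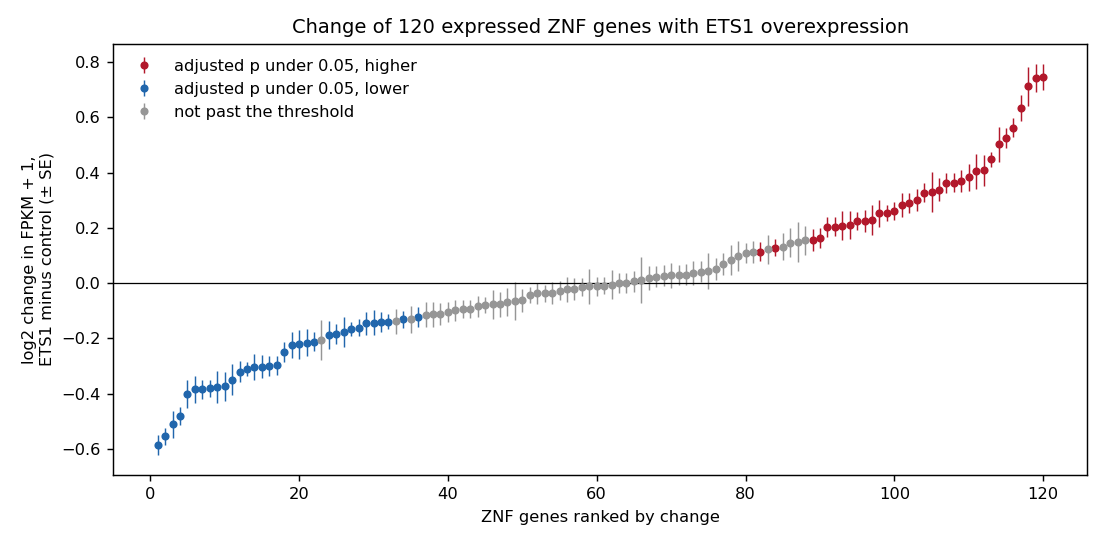
The log2 change in FPKM + 1 (ETS1 minus control, with its standard error) of each of the 120 ZNF genes, in order of size and coloured by the limma call. The curve passes 0 near its middle, with 62 genes below and 58 above, and ends at -0.59 and 0.75.

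Of the set 72 genes had a mean of 5 to 10 FPKM, 45 of 10 to 100 and 3 over 100, with a median of 8.28 FPKM against 6.33 for all tested genes. The 3 most abundant, ZNF703, ZNF503 and ZNF768, made up 28.1% of the summed level. The number of reads behind a gene in 1 library ran from 420 (ZNF296) to 34502, and the median coefficient of variation between replicates was 2.42%, against 2.93% for all tested genes. Just inside the lower limit lay ZNF33B at 5.01, ZNF260 at 5.03 and ZNF362 at 5.05 FPKM. Just outside it lay ZNF213 at 4.95, ZNF747 at 4.97 and ZNF335 at 5.00 FPKM, the last a fraction under the limit before rounding.

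ZNF703 and ZNF503 are the pair of human NLZ proteins, relatives of the fly proteins Elbow and No ocelli that act as transcriptional co-repressors, and they went in opposite directions. ZNF703, an amplified oncogene of luminal breast cancer, had 223 and 223 FPKM in the control libraries and 177 and 182 FPKM in the ETS1 libraries. The groups did not overlap, and the fall by 0.31 on the log2 scale (SE 0.027, limma adjusted p = 0.00116) left it the most abundant ZNF gene in both. The call held, but the fall was smaller, with the median change of chromosome 8 removed (-0.14) and under quantile normalization (-0.14). ZNF503 had 126 and 128 FPKM in the controls and 173 and 176 FPKM with ETS1. Both ETS1 values exceeded both controls, with a log2 change of 0.45 (SE 0.026, limma adjusted p = 6.01e-04).

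The remaining abundant genes moved little. ZNF768, which binds a motif found in mammalian interspersed repeats, had 154 and 163 FPKM in the controls and 140 and 139 FPKM with ETS1 (log2 change -0.18, limma adjusted p = 0.0103). This call was lost when the trend of change with transcript length and GC content was removed (-0.07, adjusted p = 0.163), under quantile normalization (-0.02, adjusted p = 0.664) and without ETS1 replicate 2 (-0.18, adjusted p = 0.0529). ZNF146, a protein made almost wholly of fingers, had 52.2 and 52.4 against 46.4 and 46.7 FPKM (-0.17, limma adjusted p = 0.00470) and lost its call under quantile normalization (-0.04, adjusted p = 0.255). ZNF664 had 52.7 and 50.5 against 50.5 and 51.6 FPKM, with overlapping groups and a limma adjusted p of 0.716.

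The 10 largest rises were those of ZNF711, ZNF518A, ZNF22, ZNF514, ZNF608, ZNF24, ZNF513, ZNF503, ZNF644 and ZNF354B. ZNF711 (chrX:85244032-85273362, plus strand, GENCODE 29 on GRCh38), a CpG island promoter binder linked to X-linked intellectual disability, had 13.2 and 12.3 FPKM in the controls and 21.4 and 22.7 FPKM with ETS1. Its log2 change was 0.75 (SE 0.047, limma adjusted p = 6.48e-04), the largest of the set, and no CCGGAAG stands in the window printed above. ZNF518A (chr10:96129715-96205288, plus strand), a large protein of few fingers that is related to the partners of the histone methyltransferases G9a and GLP, had 4.35 and 4.75 FPKM against 8.43 and 8.13 FPKM. It had the largest ratio of group means, 1.82, entered the set through its ETS1 level, and 1 of its 4 annotated windows holds CCGGAAG.

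ZNF22, a small finger protein first described in tooth development, had 17.6 and 15.2 FPKM in the controls and 27.7 and 27.2 FPKM with ETS1 (log2 change 0.71). In the annotation 45.3% of its exon bases lie under a gene on the opposite strand, and since the use of strand in counting is not given, reads of that gene cannot be told apart from its own. ZNF514, a KRAB protein kept through its ETS1 level, had 4.28 and 4.65 against 7.57 and 7.38 FPKM (0.63). ZNF608, a large nuclear protein with a single classical finger, had 6.27 and 6.46 against 9.76 and 9.99 FPKM (0.56). In all of these the lowest ETS1 library was above the highest control.

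ZNF24, a SCAN protein known as a repressor of VEGF transcription, had 20.9 and 20.2 FPKM in the controls and 29.4 and 30.7 FPKM with ETS1 (log2 change 0.52, SE 0.035, limma adjusted p = 7.11e-04), and its window above has 1 CCGGAAG. ZNF513, tied to photoreceptor development and retinitis pigmentosa, had 8.02 and 9.07 against 12.2 and 12.9 FPKM (0.50). ZNF354B, a KRAB protein with 14 fingers whose control mean was just under the limit of 5 FPKM, had 4.67 and 5.32 against 7.06 and 6.80 FPKM (0.41). Of its 75-base windows 10.4% occur in other genes, with the most in its neighbour ZNF354A. ZNF354A had 15.2 and 15.2 against 15.9 and 15.2 FPKM and did not pass (limma adjusted p = 0.505), and the split of reads between both genes is uncertain.

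The 10 largest falls were those of ZNF771, ZNF783, ZNF121, ZNF330, ZNF276, ZNF589, ZNF259, ZNF580, ZNF34 and ZNF428. ZNF771 (chr16:30407297-30431108, plus strand) had 6.86 and 7.04 FPKM in the controls and 4.26 and 4.34 FPKM with ETS1. The fall by 0.59 on the log2 scale (SE 0.037, limma adjusted p = 6.48e-04) was the largest of the set, and the plain ratio of its mean FPKM was 0.618. It entered the set through its control level, as its ETS1 mean was 4.30 FPKM, and its window above has no CCGGAAG. ZNF783 (chr7:149262171-149297302, plus strand), a KRAB protein, had 10.9 and 10.9 against 7.18 and 7.01 FPKM (-0.55, limma adjusted p = 5.95e-04). In the annotation 29.5% of its exon bases lie under another gene on the same strand.

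ZNF121, a chromosome 19 gene reported to bind MYC, had 17.6 and 16.4 FPKM in the controls and 11.3 and 11.9 FPKM with ETS1 (log2 change -0.51). ZNF589, a KRAB protein of blood stem cells, had 13.4 and 14.5 against 10.7 and 10.1 FPKM (-0.38). ZNF276, also kept through its control level, had 5.84 and 6.38 against 4.45 and 4.32 FPKM (-0.40), with 31.0% of its exon bases under a gene on the opposite strand. Its window above, like that of ZNF580, has 1 CTTCCGG close to the start used, and this is 1 of 2 annotated windows of ZNF276 and 1 of 3 of ZNF580, of which the others hold none.

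ZNF580, a small protein of 3 fingers, had 25.1 and 25.7 FPKM in the controls and 19.5 and 19 FPKM with ETS1 (log2 change -0.38). In the annotation 15.1% of its exon bases lie under another gene on the same strand. The neighbour of ZNF580 on chromosome 19, ZNF581, had 23.7 and 24.1 against 21.6 and 21.6 FPKM (-0.14). Of the 75-base windows of ZNF581 14.4% occur in other genes, with the most in ZNF580. ZNF34 had 7.39 and 6.93 against 5.01 and 5.57 FPKM (-0.38, and -0.20 with the median of chromosome 8 removed). ZNF428 had 36.2 and 40 against 28.8 and 29.5 FPKM (-0.37), with 27.6% of its exon bases under a gene on the opposite strand. In each of the 10 genes the highest ETS1 library was below the lowest control, as the rule for naming them required.

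**Figure D2:**
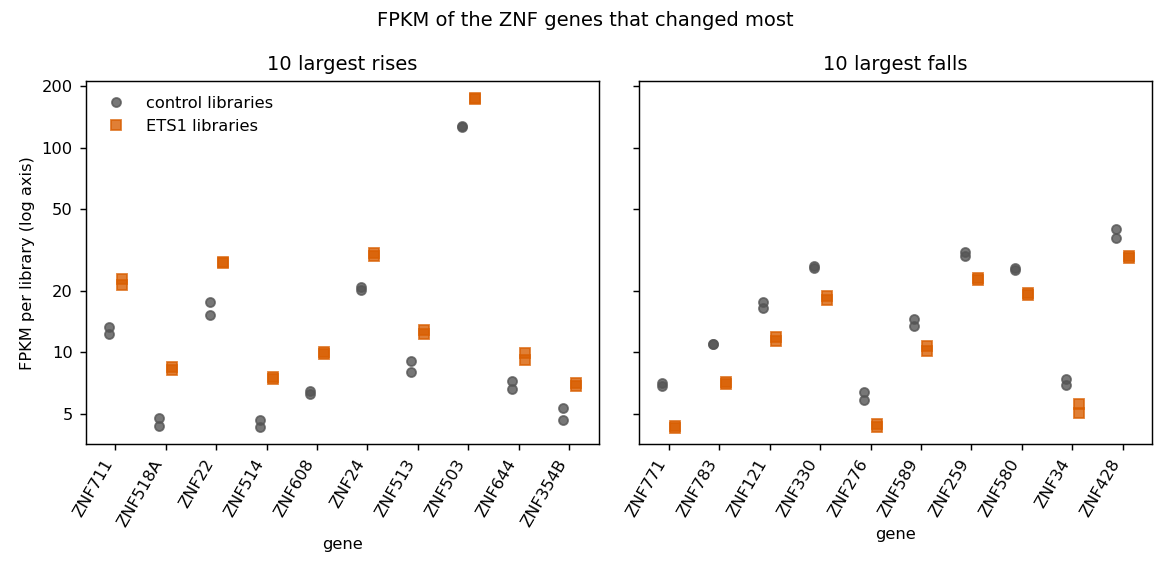
FPKM of the 10 ZNF genes with the largest rises (left) and the 10 with the largest falls (right) in each library, on a log axis, with circles for the 2 control and squares for the 2 ETS1 libraries. In each gene the groups are separated, which the rule required, and apart from ZNF503 the values lie between 4.26 and 40 FPKM.

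By role, 3 of the 4 chromatin adaptors of the set rose (ZNF518A, described above, ZNF644 and ZNF687) and 1 fell (ZNF592). ZNF687 and ZNF592 are sister proteins that join the histone reader ZMYND8 in one module. ZNF687 had 8.51 and 8.68 FPKM in the controls and 10.4 and 10.6 FPKM with ETS1 (log2 change 0.26), and ZNF592 had 10.6 and 10.2 against 8.73 and 8.45 FPKM (-0.25). ZNF592 lies on chromosome 15, where 242 of 413 tested genes fell and 28 rose, and its call was lost with the median change of its chromosome removed (-0.02, limma adjusted p = 0.688). ZNF644, a partner of G9a and GLP, had 7.21 and 6.61 against 9.15 and 9.85 FPKM (0.41). Of the 10 tested genes of the adaptor list, which includes ZNF genes under 5 FPKM, 7 rose and 1 fell, with a median of 0.31, beside 30.7% and 28.4% of all tested genes. With the length and GC trend removed 6 were higher and 2 lower, with a median of 0.17.

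Among activators of housekeeping promoters, ZNF384, a factor fused to other genes in leukaemia, had 9.25 and 9.45 FPKM in the controls and 12.6 and 12 FPKM with ETS1 (log2 change 0.36, SE 0.036, limma adjusted p = 0.00160). In the annotation 31.9% of its exon bases lie under a gene on the opposite strand. ZNF143, which sits at many promoters and chromatin loops, had 5.45 and 5.75 against 5.86 and 5.97 FPKM (0.07, limma adjusted p = 0.204), and its paralogue ZNF76 had 13 and 12.8 against 11.6 and 12.3 FPKM (-0.10, limma adjusted p = 0.0826). ZNF76 passed with the chromosome median removed (-0.17, adjusted p = 0.0134), with median-of-ratios scaling (adjusted p = 0.0494), with voom (adjusted p = 0.0391) and in the authors' deposited table (adjusted p = 0.0382), and without ETS1 replicate 1 it was -0.06. Of the list of plasticity and cancer factors, ZNF281, tied to epithelial-mesenchymal transition, had 11.5 and 10.4 against 11.8 and 12.2 FPKM and did not pass (0.12, limma adjusted p = 0.112). It passed without control replicate 1 (0.19, adjusted p = 0.0201) and with limma's voom on recovered reads (adjusted p = 0.0372), and without control replicate 2 it was 0.05. Of the 6 tested genes of that list 2 rose (ZNF148 by 0.47 and ZNF217 by 0.34, both under 5 FPKM) and 1, ZNF703, fell, or 33.3% and 16.7% beside 30.7% and 28.4% of all tested genes.

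Several ZNF proteins act on RNA, ribosomes or the spindle and not on promoters, and 0 of the 10 in the set rose and 3 fell (30%), beside 30.7% and 28.4% of all tested genes. ZNF330, a nucleolar protein, had 25.8 and 26.3 FPKM in the controls and 18.8 and 18.0 FPKM with ETS1 (log2 change -0.48, limma adjusted p = 7.82e-04). ZNF259, now named ZPR1, which binds elongation factor eEF1A and the SMN protein, had 29.4 and 30.8 against 23.1 and 22.6 FPKM (-0.38, limma adjusted p = 0.00124). ZNF830, a spliceosome-associated protein, had 20.3 and 20.6 against 17.8 and 19 FPKM (-0.15, limma adjusted p = 0.0306), and it lost its call with the length and GC trend removed (-0.06, adjusted p = 0.278), under quantile normalization (-0.09, adjusted p = 0.136), with no filter (adjusted p = 0.0928) and without control replicate 1, control replicate 2 or ETS1 replicate 1 (adjusted p = 0.0588, 0.0868 and 0.148). With that trend removed the list of 10 had 1 higher and 5 lower, with a median of -0.15 in place of -0.04.

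The other RNA-linked genes did not pass. ZNF207 (BuGZ), a spindle assembly factor, had 10.3 and 9.44 FPKM against 10.8 and 11.4 FPKM (log2 change 0.15, limma adjusted p = 0.0520), and its change turned negative with the length and GC trend removed (-0.10). It passed without control replicate 1 (0.21, limma adjusted p = 0.0207), with genes of at least 5 FPKM alone fitted (adjusted p = 0.0384), with voom (adjusted p = 0.00538) and in the authors' deposited table (adjusted p = 0.0113), and without control replicate 2 it was 0.10. ZNF598, the ubiquitin ligase that senses collided ribosomes, had 14.9 and 16.6 against 15.1 and 16.1 FPKM. ZNF622, a factor of late ribosome maturation, had 12.9 and 12.4 against 12.7 and 13.2 FPKM. The groups overlapped in both.

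**Figure D3:**
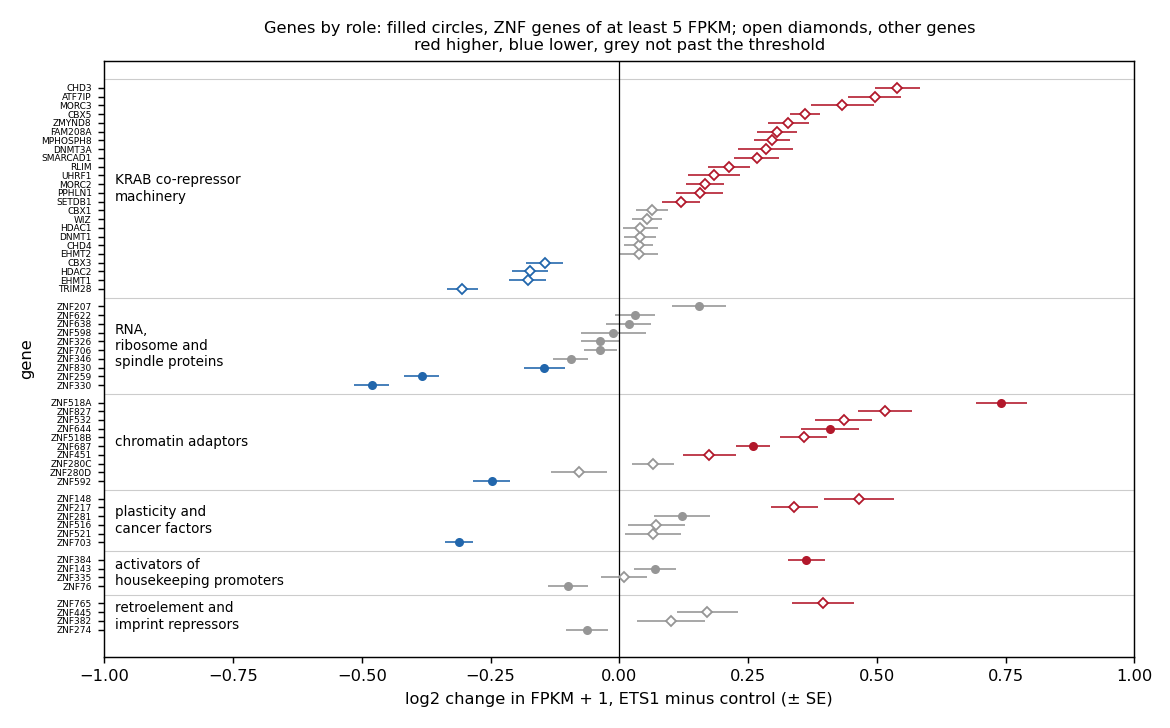
The log2 change in FPKM + 1 (ETS1 minus control, with its standard error) of the genes of each role list, with filled circles for ZNF genes of at least 5 FPKM and open diamonds for other genes. The chromatin adaptors run from -0.25 (ZNF592) to 0.74 (ZNF518A), and the RNA, ribosome and spindle list has no gene that rose.

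KRAB proteins were 43 of the 117 ZNF genes with a reference protein, and 13 of them rose (30.2%) and 10 fell (23.3%), near the 30.7% and 28.4% of all tested genes, with a median log2 change of -0.01. With the length and GC trend removed 11 were higher and 13 lower, with a median of -0.07. Of all 212 tested KRAB genes, the 43 included, 68 rose and 24 fell, with a median of 0.10, and of the 153 ZNF genes of 1 to 5 FPKM with KRAB 47 rose and 13 fell. With that trend removed the 212 had 44 higher and 39 lower, with a median of 0.03, and the 153 had 27 higher and 23 lower. Of the 74 without KRAB 19 rose and 23 fell, with a median of -0.02. ZNF514 (0.63), ZNF354B (0.41) and ZNF18 (0.37) had the largest rises with KRAB, and ZNF783 (-0.55), ZNF589 (-0.38) and ZNF34 (-0.38) the largest falls. ZNF274, a KRAB and SCAN protein that brings SETDB1 to the 3′ ends of other zinc finger genes, was the only retroelement or imprint repressor of the list above 5 FPKM. It had 6.44 and 6.51 FPKM in the controls and 6.34 and 5.99 FPKM with ETS1 and did not pass (-0.06, limma adjusted p = 0.241).

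A list of KRAB co-repressors and related regulators, none of them ZNF genes, was counted as well. Of its 24 tested genes 14 rose (58.3%) and 4 fell (16.7%), with a median of 0.16, beside 30.7% and 28.4% of all tested genes. The list is wide, and beside TRIM28 and SETDB1 it holds RLIM, ZMYND8, WIZ, EHMT1, EHMT2 and DNMT3A. The 4 that fell were TRIM28, CBX3, EHMT1 and HDAC2. With the length and GC trend removed 10 rose and 4 fell, with a median of 0.05. TRIM28, the KRAB-binding scaffold, had 110 and 106 FPKM in the controls and 88.3 and 86.5 FPKM with ETS1, a fall by 0.31 on the log2 scale (limma adjusted p = 0.00151). The remodeller CHD3 had 12.3 and 13.3 against 18.9 and 19.2 FPKM (0.54). ATF7IP, the partner of SETDB1, had 2.64 and 2.41 against 4.01 and 3.92 FPKM (0.50), and SETDB1 itself had 6.32 and 6.58 against 7.15 and 7.02 FPKM (0.12, limma adjusted p = 0.0448).

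SCAN proteins were 9 of the 117, and 5 of them rose (55.6%) and 0 fell, with a median of 0.28, beside 30.7% and 28.4% of all tested genes. With the length and GC trend removed 5 were still higher and 0 lower, with a median of 0.21. Those that rose were ZNF24 (0.52), ZNF449 (0.38), ZNF18 (0.37), ZNF232 (0.33) and ZNF75D (0.28). ZNF449, kept through its ETS1 level, had 4.68 and 4.43 FPKM in the controls and 6.02 and 6.47 FPKM with ETS1, and ZNF18 had 6.34 and 6.37 against 8.76 and 8.25 FPKM. The others, ZNF202, ZNF274, ZNF394 and ZNF444, lay between -0.11 and -0.02. Over all 42 tested genes with a SCAN domain, the 9 included, 20 rose and 3 fell, with a median of 0.14. At 9 genes this is a description, and no test of the group was made.

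The number of classical C2H2 fingers in the reference protein had a median of 7 and a maximum of 23 (ZNF721), and 6 proteins had no finger of the classical spacing. All 6 of these passed, with ZNF503 and ZNF738 higher and ZNF703, ZNF330, ZNF259 and ZNF839 lower, where 59.1% of all tested genes passed. With the length and GC trend removed 1 was higher and 4 lower, as ZNF738 lost its call (0.03, limma adjusted p = 0.554). Of the 18 proteins with at least 13 fingers 8 rose and 3 fell, and with the length and GC trend removed 5 were higher and 3 lower. Of the 33 with 8 to 12 fingers 8 rose and 11 fell, of the 37 with 4 to 7 fingers 9 and 7, and of the 23 with 1 to 3 fingers 5 and 8, beside 30.7% and 28.4% of all tested genes. Across the 117 genes the correlation of the change with the number of fingers was 0.11 (Spearman) and 0.09 (Pearson).

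**Figure D4:**
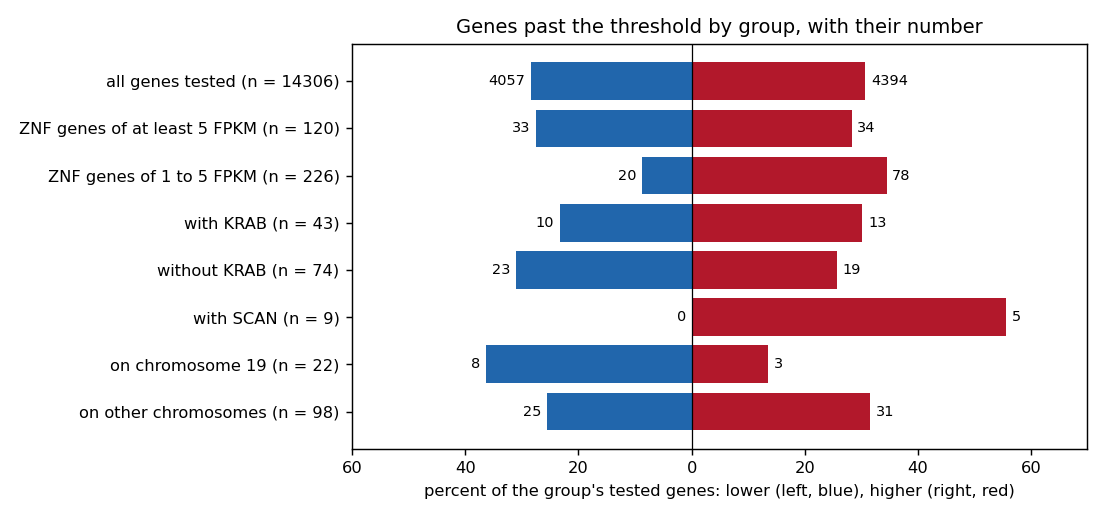
Percent of each group's tested genes that were lower (left) or higher (right) in the ETS1 libraries past the limma threshold, with the number of genes at the end of each bar; the groups by domain and by chromosome are of the 120 ZNF genes. The bars of the 120 genes (34 higher, 33 lower) are close in length to those of all genes, and the SCAN bar has 5 higher and 0 lower.

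By position, 22 of the 120 genes lay on chromosome 19, the chromosome with the most of them, and 3 of these rose and 8 fell, with a median of -0.10. Of the 98 elsewhere 31 rose and 25 fell. All tested chromosome 19 genes had 184 higher and 280 lower of 847, with a median of -0.04, so the whole chromosome leaned the same way. ZNF genes of 1 to 5 FPKM on chromosome 19 leaned the other way, with 34 of 114 higher and 8 lower. With the length and GC trend removed there were 21 higher and 14 lower of the 114, 211 and 235 of all chromosome 19 genes, and 1 and 6 of the 22 (median -0.08). On chromosome X all 5 of 5 rose (ZNF711, ZNF449, ZNF75D, ZNF182 and ZNF275), beside 187 higher and 97 lower of 464 tested genes there. With the median of the chromosome removed 3 of the 5 remained, without ZNF182 (0.12, limma adjusted p = 0.0843) and ZNF275 (0.03, adjusted p = 0.504). ZNF275 also lost its call with the length and GC trend removed (0.06, adjusted p = 0.225). On chromosome 8 0 of 7 rose and 4 fell (ZNF34, ZNF251, ZNF395 and ZNF703), beside 104 higher and 219 lower of 441. With the median of chromosome 8 removed ZNF251 lost its call (-0.04, limma adjusted p = 0.343), and ZNF623 (0.17, adjusted p = 0.00839) and ZNF706 (0.14, adjusted p = 0.0142) were higher. With the median change of each chromosome removed 61 of the 67 calls remained in the same direction. DNA copy number was not measured, and its part in these differences was not tested.

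The changes moved with base composition. Ordered by the GC content of the longest annotated transcript, the 30 genes of lowest GC (34.7 to 41.4%) had 14 higher and 2 lower, and their median change was 0.15 on the log2 scale. The next 30 (41.4 to 49.4%) had 9 higher and 8 lower, and the 30 after them (49.4 to 58.5%) 7 higher and 9 lower. The 30 of highest GC (58.5 to 71.1%) had 4 higher and 14 lower, with a median of -0.13. The 2 that fell among the 30 of lowest GC were ZNF121 (40.4% GC, -0.51) and ZNF33B (38.5%, -0.12), whose call was lost without any 1 of the 4 libraries (limma adjusted p = 0.0827 to 0.181), with no filter, with the replicate block and in the authors' deposited table (adjusted p = 0.0675, 0.0869 and 0.0983). The 4 that rose among the 30 of highest GC were ZNF513 (64.3%, 0.50), ZNF503 (62.0%, 0.45), ZNF316 (68.3%, 0.30) and ZNF574 (60.9%, 0.25).

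All tested genes leaned the same way, with medians of 0.16, 0.04, -0.03 and -0.05 in the same 4 ranges of GC. Their shares in the lowest range were 49.6% higher and 14.9% lower, against 46.7% and 6.7% of the ZNF genes. In the highest range they were 22.6% and 36.7%, against 13.3% and 46.7%, and in the middle ranges 32.8% and 25.6%, then 26.1% and 34.8%. The Spearman correlation of change with GC was -0.39 over the 120 genes (Pearson -0.36) and -0.26 over 12585 tested genes, all from the same 4 libraries, and the ETS1 libraries were the deeper ones. After removal of the length and GC trend of all genes it was -0.01 over the 120. Of the 67 calls 52 then remained in the same direction, 15 were lost, 0 turned, and 14 other genes passed, for 32 higher and 34 lower. All 20 of the named largest movers kept their call and direction, and the size shrank most, as a proportion of the reported change, in ZNF644 (0.41 to 0.17, limma adjusted p = 0.0424), ZNF24 (0.52 to 0.28), ZNF428 (-0.37 to -0.23) and ZNF518A (0.74 to 0.47). Among the losses were ZNF33A (0.16 to -0.04), ZNF260 (0.23 to 0.01) and ZNF581 (-0.14 to 0.01), chosen for mention after their values were seen. The part of library preparation or depth in the trend was not tested.

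**Figure D5:**
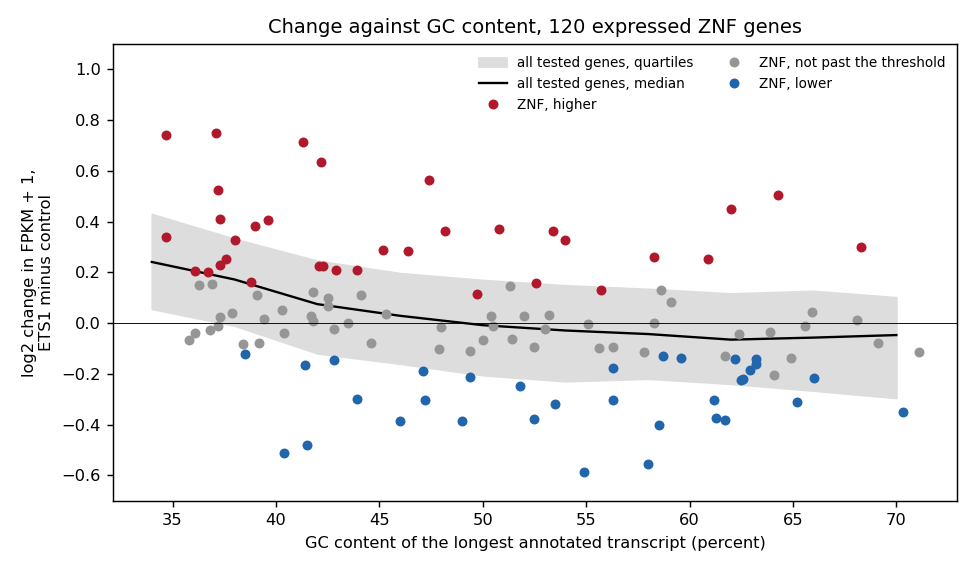
Log2 change in FPKM + 1 (ETS1 minus control) against the GC content of the longest annotated transcript for the 120 ZNF genes, coloured by the limma call, with the median and quartiles of all tested genes in bins of 4 percent GC. Both slope down: the 30 ZNF genes of lowest GC have a median of 0.15 and the 30 of highest GC -0.13.

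Among the less abundant ZNF genes more rose than fell. Of the 226 of 1 to 5 FPKM 78 rose and 20 fell, with a median log2 change of 0.10 against -0.01. Their median GC content was 43.3%, against 49.4% for the 120, and with the length and GC trend removed 53 were higher and 32 lower, with a median of 0.04. In the lowest of the 4 GC ranges 35 of 75 rose and 4 fell, close to the 14 and 2 of 30 above 5 FPKM. In the second range they had 33 of 98 higher and 9 lower, where the more abundant genes had 9 and 8 of 30. In the third range 5 of 27 rose and 7 fell, and in the highest 2 of 21 rose and 0 fell. The difference between the groups of genes was not tested, and the groups differ in level by the way they were chosen.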

How the data were processed

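RNA of 4 libraries of TE5 cells, 2 control and 2 ETS1, was sequenced in bulk. The authors deposited FPKM per gene and a comparison table. HISAT2, HTSeq, DESeq2 and the builds hg38 and GRCh38 are named in the submitters' processing notes, and versions, annotation and use of strand are not given in the sources used here. The table's mean normalized count is a signal that the authors averaged over the 4 libraries, per the file headers. The log2 fold changes in it are the authors', per the file headers. Its p-values and adjusted p-values are the authors' too, per the file headers, and the adjusted value is missing for 969 genes.

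The members and lists were chosen with earlier results of these data known. FPKM was taken as log2(FPKM + 1), which understates changes of low genes, and genes of a mean of at least 1 FPKM (14306) were fitted with limma 3.58.1 in R 4.3.3 with an intensity trend. This replaced the count test that the design allowed for raw counts. There were 2 residual and 2.84 prior degrees of freedom, and the threshold was an adjusted p of 0.05. The fit was tested on simulated data. Reads were recovered by scaling FPKM to the authors' mean normalized count, with library factors fitted so that low counts came out whole. Of the recovered values 99.7% lay within 0.05 of a whole number, which the fit of the factors partly builds in. The length used in the length and GC trend was derived from these reads and FPKM.

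Named genes were the 10 largest rises and 10 largest falls that passed without overlap, the 5 most abundant, 3 on each side of the level limit, and up to 4 of each role list. Genes named beyond these were chosen after their values were seen, and genes of several promoter entries count once. Positions, transcripts and proteins came from GENCODE 29 on GRCh38; the authors may have used another annotation. KRAB and SCAN domains were found with HMMER 3.4 profiles (E-value under 1e-04) in the longest protein, and fingers by the C2H2 spacing (2 to 4 residues between cysteines, 12 to the first histidine, 3 to 5 between histidines). The older names ZNF259, ZNF271 and ZNF767 were matched through RefSeq synonyms. The alternatives were other scalings, filters, pseudocounts and priors, recovered reads with limma's voom, trend and chromosome removal, a replicate block and leaving out each library. The result of 1 list of cell type markers is not reported here.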

Additional observations from a re-analysis of the deposited data

How the results depend on the processing

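Under 15 alternatives the number of ZNF genes called higher was 25 to 40 (34 as reported) and lower 22 to 42 (33), each within 1.5 times the reported count. Leaving out 1 library gave 25 to 32 higher and 22 to 33 lower. With the replicate block 31 were higher and 28 lower. Libraries with the same number did not deviate together (correlation -0.046), so the numbers were not used as pairs.

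The median log2 change of the 120 genes (-0.011 as reported) was -0.021 with the chromosome median removed, -0.045 with the length and GC trend removed, -0.029 with median-of-ratios scaling, -0.025 with quantile normalization and -0.034 in the authors' deposited comparison, each moved by more than the spread between library pairs (SD 0.010). Without 1 library it was -0.011 to 0.001, and the last, without control replicate 2, turned its sign and also moved by more than that spread. The cause was not tested.

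Of the 29 named genes with a call, 23 kept it in the same direction under all 15 alternatives. The rest (ZNF592, ZNF260, ZNF830, ZNF768, ZNF33B and ZNF146) lost it under at least 1 and turned under none. ZNF33B lost it without any 1 of the 4 libraries and ZNF260 without ETS1 replicate 2 or control replicate 2. Named genes without a call that turned sign were ZNF207 (-0.102 with the length and GC trend removed), ZNF664 (0.117 with quantile normalization, adjusted p = 0.0320 in limma, and 0.016 without control replicate 1, from a range of -0.046 to 0.016 without 1 library) and ZNF362. ZNF362 was -0.053 with the chromosome median removed, -0.014 with median-of-ratios scaling, -0.056 with quantile normalization, -0.018 in the authors' deposited comparison, and -0.008 to 0.013 without 1 library, with -0.000 without ETS1 replicate 1. With 2 libraries a group, changes near the size of the replicate spread cannot be told from it. In the annotation 21 of the 120 genes have over 10% of their exon bases under a gene on the opposite strand and 9 under one on the same strand, and 8 share over 10% of 75-base windows with other genes. The 21 include the large movers ZNF771 (11.8%), ZNF513 (12.8%) and ZNF503 (11.6%).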

Other observations

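Zinc finger genes with other names were counted beside the ZNF genes, at a mean of at least 1 FPKM and past the same limma threshold. Of 38 ZBTB genes, whose proteins join fingers to a BTB domain, 19 rose and 5 fell, with a median log2 change of 0.19. Of all tested genes 30.7% rose and 28.4% fell, and the ZSCAN shares below (30.8% and 23.1%) are near these. Of 15 ZFP genes 9 rose and 1 fell (median 0.24), and of 13 KLF genes, the Krüppel-like factors, 9 rose and 3 fell (median 0.29). Of 6 ZKSCAN genes, which carry a SCAN domain with a KRAB domain, 5 rose and 0 fell (median 0.28), whereas of 13 ZSCAN genes 4 rose and 3 fell (median 0.04). After removal of the trend with transcript length and GC the counts were 18 and 5 for ZBTB, 8 and 2 for ZFP, 10 and 2 for KLF, 5 and 0 for ZKSCAN, and 4 and 2 for ZSCAN. Differences between these families were not tested.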
